A study of Arabidopsis thaliana with 4 samples.

Results

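The aluminium (Al) response of luh-4 roots was set against that of Col roots, locus by locus, to find the transcripts whose response differed between the genotypes. For each locus the response was the log2 ratio of the Al library over the control library of the same genotype, on RPKM (reads per kilobase of coding length, scaled to the library total) plus a pseudocount of 0.1. The difference between responses was the luh-4 response minus the Col response. A locus was a member where it reached an RPKM of at least 1 in any library, its difference was at least 1 in either direction (2-fold), and the 95% interval from counting error excluded 0. Of 17435 measured loci, among 21531 listed, 629 were members (3.61%): the response was more negative in luh-4 at 394 (2.26%) and more positive in luh-4 at 235 (1.35%).

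The 4 groups were luh-4 Al, luh-4 control, Col Al and Col control, with 1 library each from roots of Arabidopsis thaliana seedlings 6 d old. All seedlings were grown at pH 5.5 under 16 h of light and 8 h of darkness at 22 °C and then placed in solution at pH 4.2, about 500 seedlings at 25 µM AlCl3 or with none. The treatment text has all roots taken after 4 h, but both control libraries carry the time point 0 h, so an Al ratio may also hold 4 h at pH 4.2. Col is the Columbia wild type, and luh-4 is a mutant of LEUNIG_HOMOLOG (LUH), of which no other allele or rescued line was in the series. With 1 library per group no difference has a replicate check, no p-value is given, and each comparison is of libraries rather than of conditions.

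LUH encodes a co-repressor of transcription that is brought to promoters by DNA-binding partners and is best known from seed coat mucilage, where it is needed for the enzymes that loosen pectin. Aluminium ions at low pH stop root growth, bind to cell wall pectin and are kept out in part by malate and citrate released from the root tip. Jasmonate is a wound hormone whose receptor, COI1, marks the JAZ repressors for destruction, and the genes of JAZ proteins are themselves among its early targets. Root hairs are outgrowths of single epidermal cells that are switched on by the basic helix-loop-helix factors RHD6 and RSL4 and built with their own set of expansins and extensins.

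LUH (AT2G32700) had 0 reads in luh-4 Al and 0 in luh-4 control, against 63 in Col Al and 75 in Col control, so the luh-4 libraries matched their label; in Col Al and Col control reads covered at most 19.0% of its length. Libraries held 13.5 M to 13.8 M reads on transcripts. Green tissue was followed through 25 marker loci of photosynthesis, all listed in every library: together they had 2245 reads in luh-4 Al and 6354 in luh-4 control, against 2028 in Col Al and 2881 in Col control. The luh-4 control library therefore stood apart in these markers, and it enters every difference given here. In bulk roots, fewer cells of a type and less RNA per cell cannot be told apart.

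Among the 394 loci with a more negative response in luh-4, the median response was -0.82 in luh-4 and 0.65 in Col. In 76 of them the locus rose in Col (at least 2-fold, counting interval off 0) and did not pass in luh-4, in 141 it fell in luh-4 and did not pass in Col, and in 152 neither response passed by itself. Over all measured loci, 2.01% rose and 3.11% fell in luh-4, and 2.59% rose and 2.89% fell in Col. Among the 235 loci with a more positive response, the medians were 0.55 in luh-4 and -0.99 in Col: 84 fell in Col alone, 45 rose in luh-4 alone and 88 passed in neither. Past the rule in both genotypes and the same direction were 12 that rose and 3 that fell among the more negative loci, and 3 that rose and 13 that fell among the more positive ones. Both responses passed in opposite directions at 10 of the more negative loci and 2 of the more positive ones.

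**Figure D1:**
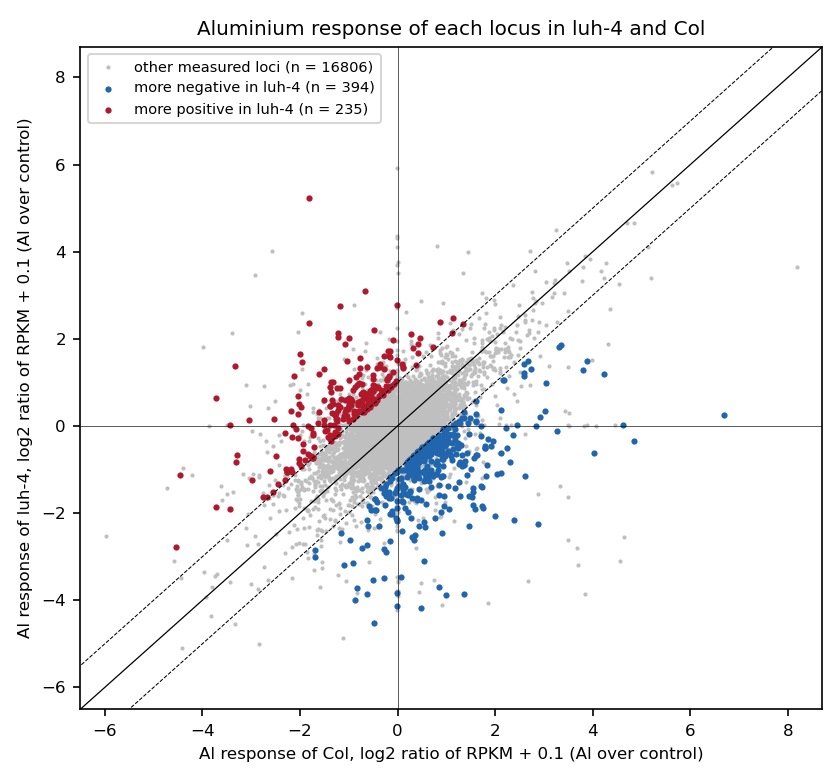
Al response of luh-4 (vertical axis) against Al response of Col (horizontal axis), both as log2 ratios of RPKM + 0.1, for 17435 measured loci, 1 point each. The solid line marks equal responses and the dashed lines a difference of 1; the 394 blue points lie below the band and the 235 red points above it, while other points outside the band had a counting interval that included 0.

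The same loci can be read by library. The highest RPKM of the more negative loci was in luh-4 control for 243 of 394 (61.7%, against 27.5% of all measured loci) and in Col Al for 138 (against 28.1% of all measured loci). The lowest RPKM of the more positive loci was in Col Al for 148 of 235 (63.0%, against 24.4% of all measured loci) and in luh-4 control for 87 (37.0%, against 22.7%). These shares follow in part from how a difference is defined, so they describe the members and test nothing. Between genotypes, the more negative loci had a median luh-4 over Col log2 ratio of -0.63 with Al and 0.91 without it, and the more positive loci 0.89 with Al and -0.60 without it. These ratios use the same 4 libraries as the difference.

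Promoters are shown for 4 members that carry the results below: WRKY40, JAZ7 and CBF2 on the more negative side and EXPA7 on the more positive side. Each line gives the 250 bases before the annotated gene start, 5′ to 3′, from RefSeq's TAIR10.1 assembly. Matches to the G-box CACGTG and the W-box TTGAC on either strand are in capitals. For the CAMTA element only the letters ACGCGT were searched, without a match in these 4 windows. Other forms of the element were not searched, so these windows may hold them. In the CBF2 window the letters CCGCGT, which differ from ACGCGT in their opening base, stand in lower case.
WRKY40 (chr1:30383311-30383560, plus strand): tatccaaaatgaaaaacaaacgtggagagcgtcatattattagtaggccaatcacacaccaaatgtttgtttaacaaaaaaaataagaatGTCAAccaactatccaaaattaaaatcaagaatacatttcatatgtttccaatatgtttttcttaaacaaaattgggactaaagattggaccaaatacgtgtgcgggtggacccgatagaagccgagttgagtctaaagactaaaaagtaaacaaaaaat
JAZ7 (chr2:14572780-14573029, plus strand): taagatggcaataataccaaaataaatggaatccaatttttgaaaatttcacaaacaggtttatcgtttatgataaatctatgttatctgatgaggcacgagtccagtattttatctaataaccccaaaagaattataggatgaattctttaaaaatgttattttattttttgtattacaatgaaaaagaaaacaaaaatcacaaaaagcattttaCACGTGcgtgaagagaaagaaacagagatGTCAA
CBF2 (chr4:13016236-13016485, minus strand): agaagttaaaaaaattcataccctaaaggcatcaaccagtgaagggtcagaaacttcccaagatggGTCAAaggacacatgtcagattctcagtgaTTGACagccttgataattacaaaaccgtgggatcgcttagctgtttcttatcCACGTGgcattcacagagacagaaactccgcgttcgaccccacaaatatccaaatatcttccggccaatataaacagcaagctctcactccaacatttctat
EXPA7 (chr1:4276255-4276504, plus strand): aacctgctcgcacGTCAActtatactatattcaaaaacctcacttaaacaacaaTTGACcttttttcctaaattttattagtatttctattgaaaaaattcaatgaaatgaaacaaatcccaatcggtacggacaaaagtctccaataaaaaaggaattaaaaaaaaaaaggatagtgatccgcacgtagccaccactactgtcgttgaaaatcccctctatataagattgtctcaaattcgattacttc

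Genes of jasmonate synthesis and signalling had a more negative response in luh-4 at 13 of 24 measured list members and a more positive one at 0. Over all measured loci these shares were 2.26% and 1.35%. The list's median difference was -1.07, beside -0.04 over all measured loci, and its median response was -0.80 in luh-4 and 0.09 in Col. All 13 were higher in luh-4 control than in Col control, 12 of them had their highest RPKM in luh-4 control, and 1 (JAZ10) had it in Col Al. The part of shoot tissue in this group was not tested.

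Among the genes of synthesis, LOX4, a lipoxygenase that starts the pathway, had 70 reads in luh-4 Al and 211 in luh-4 control, against 111 in Col Al and 35 in Col control. It fell in luh-4 (-1.51) and rose in Col (1.55), a difference of -3.06 (95% counting interval -3.86 to -2.52). The allene oxide synthase gene AOS, the next step, was more abundant and moved less, with 597 reads in luh-4 Al and 973 in luh-4 control, against 776 in Col Al and 612 in Col control (difference -1.001). LOX3 (-2.07) and the allene oxide cyclase gene AOC2 (-1.15) were members too, while AOC3, the most abundant cyclase of the list at 120 to 168 RPKM, had -0.55 and LOX6 had -0.17.

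Of the JAZ repressors, whose loss from the nucleus releases jasmonate genes, 6 were members under their JAZ names and another as TIFY7. JAZ1 (AT1G19180) had 357 reads in luh-4 Al and 497 in luh-4 control, against 443 in Col Al and 250 in Col control, a difference of -1.26 (-1.56 to -0.96). The luh-4 control library held the most JAZ1 reads and Col control the fewest. JAZ7 had 15 and 48 reads in luh-4 Al and luh-4 control, against 18 and 7 in Col Al and Col control, so that it fell in luh-4 (-1.61) and rose in Col (1.28). JAZ10, with 14 and 27 reads in luh-4 Al and luh-4 control against 28 and 5 in Col Al and Col control, had -3.12 (-4.86 to -1.65). JAZ8 (-2.10), TIFY7 (-1.65), JAZ5 (-1.44) and JAZ6 (-1.06) were the other members, and JAZ3 had 0.28. The receptor gene COI1 had a difference of 0.22, and the master factor gene MYC2 had -0.56 (-0.72 to -0.41). Downstream, the tyrosine aminotransferase gene TAT3, a wound and jasmonate marker, had 8 reads in luh-4 Al and 84 in luh-4 control, against 14 in Col Al and 9 in Col control (-3.64). CYP94C1, an enzyme gene of jasmonate breakdown, had 33 and 70 reads in luh-4 Al and luh-4 control, against 52 and 49 in Col Al and Col control (-1.08).

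Early wound, touch and elicitor genes were measured at 26 loci, of which 7 rose and 5 fell in luh-4 and 14 rose and 0 fell in Col. Over all measured loci 2.01% rose and 3.11% fell in luh-4, and 2.59% rose and 2.89% fell in Col. Of the 26, 10 had a more negative response in luh-4 and 0 a more positive one, against 2.26% and 1.35% of all measured loci. The list had a median difference of -0.77 and a median response of -0.04 in luh-4 and 1.04 in Col. All 10 had their lowest RPKM in Col control; 8 had their highest in luh-4 control and 2 in Col Al. The transcription factor gene WRKY40 (AT1G80840), a repressor of defence genes, had 88 reads in luh-4 Al and 341 in luh-4 control, against 141 in Col Al and 67 in Col control. It fell in luh-4 (-1.91) and rose in Col (1.05), a difference of -2.96 (-3.51 to -2.44). Its close relative WRKY18 took the same course on few reads, 3 and 17 in luh-4 Al and luh-4 control against 12 and 2 in Col Al and Col control (-4.08, -7.17 to -2.04).

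The ethylene response factor gene ERF13 had 40 reads in luh-4 Al and 148 in luh-4 control, against 62 in Col Al and 18 in Col control, and its responses also passed in opposite directions (difference -3.55). CBF2, a factor of the cold response that wounding also induces, had 11 and 26 reads in luh-4 Al and luh-4 control, against 20 and 5 in Col Al and Col control (-2.96). RRTF1, also named ERF109 and induced by reactive oxygen and jasmonate, differed by 1 library: 14 reads in luh-4 Al and 94 in luh-4 control, against 13 in Col Al and 10 in Col control. Unlike these, the zinc finger gene STZ was abundant in all libraries, with 700 and 912 reads in luh-4 Al and luh-4 control against 831 and 404 in Col Al and Col control (-1.38, -1.60 to -1.16). MYB51, a regulator of indole glucosinolates, had 0.19 in luh-4 and rose in Col (1.48). CML39, a calcium sensor related to CML37, had 42 and 70 reads in luh-4 Al and luh-4 control, against 52 and 41 in Col Al and Col control (-1.02).

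CML37, a calmodulin-like calcium sensor of the wound response, had 82 reads in luh-4 Al and 36 in luh-4 control, against 127 in Col Al and 6 in Col control. It rose in both genotypes, by 1.201 in luh-4 and 4.23 in Col (difference -3.03, -4.34 to -1.81), and the 2 Al libraries differed less than the 2 controls did. The cyclic nucleotide gated channel gene CNGC19, also wound-induced, had 79 and 63 reads in luh-4 Al and luh-4 control, against 160 and 17 in Col Al and Col control; it had 0.34 in luh-4 and rose in Col (3.01). PROPEP1, precursor of a damage peptide and not on the wound list, had -0.67 in luh-4 and rose in Col (1.61). It had 48 and 78 reads in luh-4 Al and luh-4 control against 90 and 29 in Col Al and Col control (-2.27). Other Al-induced genes of the wound list did not differ by the rule. TCH4, a touch-induced xyloglucan enzyme gene, rose by 1.72 in luh-4 and 1.79 in Col, and CYP81F2, of indole glucosinolate synthesis, rose by 2.21 in luh-4 and 1.97 in Col. The defence gene NHL3 had 9620 reads in luh-4 Al and 2901 in luh-4 control, against 10496 in Col Al and 2567 in Col control, and a difference of -0.26.

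**Figure D2:**
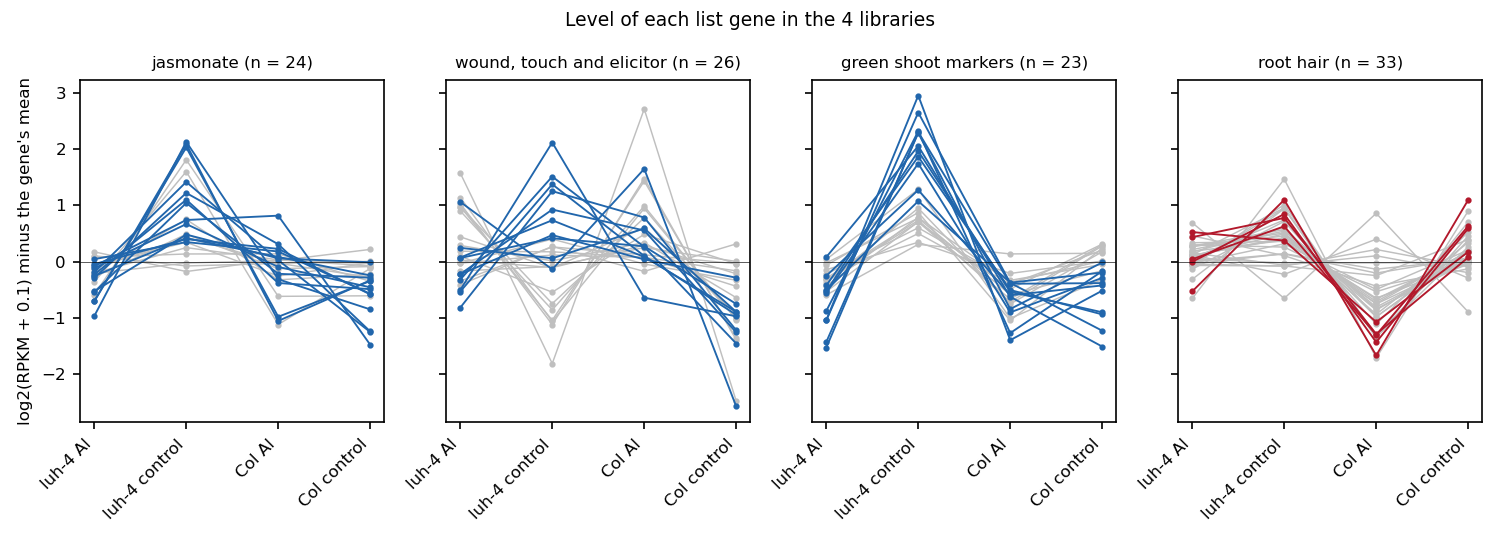
Level of each list gene in the 4 libraries as log2(RPKM + 0.1) minus the gene's own mean, 1 line per gene, with members in blue (more negative in luh-4) or red (more positive) and other measured list genes in grey. Of the members, 12 of 13 jasmonate and 11 of 11 shoot marker genes peak in luh-4 control and 10 of 10 wound genes are lowest in Col control, while 28 of 33 root hair genes are lowest in Col Al.

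Over all measured loci 2.26% were more negative and 1.35% more positive. Of 57 measured WRKY genes 6 were more negative and 1 more positive, of 86 ethylene response factor and DREB genes 6 and 1, of 89 MYB genes 5 and 0, of 63 NAC genes 4 and 1, and of 91 basic helix-loop-helix genes 3 and 4. Of 60 genes of calmodulin-like and EF-hand calcium sensors 5 were more negative and 1 more positive. On the ethylene list 4 of 21 were more negative: ERF105, which fell in luh-4 (-1.11), the synthesis gene ACS7 and ERF1, which rose in Col (1.60 and 1.03), and ERF2. ERF2 had 291 reads in luh-4 Al and 367 in luh-4 control, against 309 in Col Al and 162 in Col control, so 3 libraries were close and Col control was low. The ethylene signalling genes EIN2 (-0.03), EIN3 (-0.11) and ERS1 (-0.24) differed little. Of 16 salicylate defence genes, the glutaredoxin gene GRX480 (-2.06) and WRKY70 (-1.45) were more negative and ALD1 (1.86) was more positive, the last on 17 and 4 reads in luh-4 Al and luh-4 control against 18 and 20 in Col Al and Col control. MYB2, an abscisate and drought factor, reached its difference of -4.53 (-8.34 to -2.05) on 2 and 13 reads in luh-4 Al and luh-4 control against 10 and 1 in Col Al and Col control.

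In further abundant members Col control was also the low library, CAF1a apart. BCS1 (AT3G50930), an AAA ATPase of the outer mitochondrial membrane that is also named OM66 and stress-induced, had 942 reads in luh-4 Al and 967 in luh-4 control, against 1238 in Col Al and 376 in Col control. It had -0.01 in luh-4 and rose in Col, a difference of -1.71 (-1.92 to -1.50). The dicarboxylate carrier gene DIC2 had 516 and 708 reads in luh-4 Al and luh-4 control, against 645 and 338 in Col Al and Col control (-1.34). SZF1, a zinc finger gene of the salt response, had 641 and 1089 in luh-4 Al and luh-4 control against 828 and 567 in Col Al and Col control (-1.26). CAF1a, a deadenylase gene, fell in luh-4 (-1.21) and had 0.03 in Col.

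Photosynthesis transcripts, which roots hold at low level, were the other large group on the negative side. Of 23 measured shoot markers 11 were more negative in luh-4 and 0 more positive, against 2.26% and 1.35% of all measured loci. All 23 had their highest RPKM in luh-4 control, against 27.5% of all measured loci. Of 75 genes annotated as photosystem, chlorophyll-binding or Rubisco small subunit, 21 were more negative and 1, encoded in the plastid, was more positive. RBCS1A, the main Rubisco small subunit, had 140 reads in luh-4 Al and 810 in luh-4 control, against 143 in Col Al and 110 in Col control (-2.86). CAB2, a light-harvesting protein gene, had 18 and 252 reads in luh-4 Al and luh-4 control, against 30 and 16 in Col Al and Col control (-4.55). The CAB and RBCS genes have near-identical copies that can share reads, so their single values are uncertain. GER3, a germin-like gene known from leaves, had 4 and 89 reads in luh-4 Al and luh-4 control against 6 and 4 in Col Al and Col control, the most negative difference of the 50 named members (-4.67). PRK, of the Calvin cycle, had 4 and 80 reads in luh-4 Al and luh-4 control against 11 and 11 in Col Al and Col control (-3.82). In these 4 genes luh-4 control was the high library, as in the sum of the 25 markers.

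Root triterpene genes formed a smaller group. The thalianol genes lie next to each other on chromosome 5 and are used in root metabolites that shape the root microbiota. CYP705A5, a cytochrome P450 of this cluster, had 77 reads in luh-4 Al and 901 in luh-4 control, against 175 in Col Al and 211 in Col control. It fell in luh-4 (-3.48) and had -0.28 in Col (difference -3.20, -3.67 to -2.79). The neighbouring acyltransferase gene AT5G47980 had 85 and 287 reads in luh-4 Al and luh-4 control, against 165 and 116 in Col Al and Col control (-2.19), and the thalianol synthase gene THAS1 had 21 and 82 in luh-4 Al and luh-4 control, against 41 and 26 in Col Al and Col control (-2.38). Reads covered at most 20.6% of the length of THAS1. CYP708A2 of the same cluster did not pass (-1.76, -3.91 to 0.08). In a separate cluster the marneral synthase gene MRN1 was a member (-2.49) on 4 to 42 reads, while PEN1 (-0.25) and BARS1 (0.56) were not. Of 9 measured list genes 3 were members (CYP705A5, THAS1 and MRN1), all more negative, against 2.26% of all measured loci. AT5G47980 is not on the list.

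On the positive side, of 33 measured root hair genes 5 were more positive in luh-4 and 0 more negative, against 1.35% and 2.26% of all measured loci. A difference above 0 was found at 28, while 55.3% of all measured loci lay below 0, and the list's median was 0.60. The median response was -0.29 in luh-4 and -0.89 in Col. By their own size rule 4 fell in luh-4 and 14 in Col, against 3.11% and 2.89% of all measured loci. The lowest RPKM was in Col Al for 28 of the 33, against 24.4% of all measured loci. With luh-4 Al set directly against Col Al, which leaves both controls out, the median of the list was 1.02, and without Al it was 0.24.

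The regulator RSL4 (AT1G27740), which sets root hair length, had 73 reads in luh-4 Al and 67 in luh-4 control, against 24 in Col Al and 58 in Col control. Its response was 0.15 in luh-4, and it fell in Col (-1.25), a difference of 1.401 (0.59 to 2.25). RHD6, which acts upstream, had 0.36, and its sister gene RSL2 had 0.65; neither passed. EXPA7 (AT1G12560), a root hair expansin that loosens the wall, had 1114 reads in luh-4 Al and 2052 in luh-4 control, against 424 in Col Al and 1714 in Col control (1.17, 0.99 to 1.36). MRH6, needed for hair shape, had 110 and 169 reads in luh-4 Al and luh-4 control, against 44 and 169 in Col Al and Col control (1.35). In these genes the controls were close and Col Al was the low library. RHS8, a root hair glycosyltransferase gene (1.14), and XTH26, a xyloglucan-remodelling enzyme gene (1.02), were the other members, and the peroxidase gene PRX7 (0.88), SHV2 (0.79) and PRP1 (0.79) lay just below the rule.

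Of 4 measured root hair wall extensins 1 was a member, and all 4 had their lowest RPKM in Col Al. The list was drawn up with 13 symbols, of which only 5 were matched to a locus. The extensin gene EXT13 had 344 reads in luh-4 Al and 882 in luh-4 control, against 142 in Col Al and 774 in Col control; it fell in both genotypes, by 1.32 on the log2 scale in luh-4 and by 2.45 in Col. Its list relatives EXT6 (0.91), EXT10 (0.80) and HRGP1 (0.67) did not pass. Of 134 loci annotated as extensin-like or proline-rich, 5 were more positive and 1 more negative, against 1.35% and 2.26% of all measured loci. They included AT5G06630 (1.15) and AT4G08410 (1.17) and, in the other direction, AT1G64065 (-3.40), with 17 and 19 reads in luh-4 Al and luh-4 control against 37 and 3 in Col Al and Col control. AT4G08410 had 1227 and 1491 reads in luh-4 Al and luh-4 control against 431 and 1148 in Col Al and Col control. AT5G57625, annotated as a secreted cysteine-rich CAP protein, had 3158 reads in luh-4 Al and 3445 in luh-4 control, against 1177 in Col Al and 3197 in Col control (1.36, 1.24 to 1.48). Of 45 arabinogalactan protein genes, which encode heavily glycosylated wall and membrane proteins, 5 were more positive and 0 more negative: AGP41 (2.49), AGP12 (1.29), AGP24 (1.09), AGP3 (1.06) and AGP19 (1.005).

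The arabinogalactan genes did not share a single course. AGP3 had 895 and 1068 reads in luh-4 Al and luh-4 control, against 374 and 904 in Col Al and Col control, so Col Al was low. AGP12 had 1025 and 496 in luh-4 Al and luh-4 control against 747 and 859 in Col Al and Col control, so luh-4 control was low, and it rose in luh-4 (1.08). AGP41 rested on 17, 31, 3 and 32 reads in luh-4 Al, luh-4 control, Col Al and Col control, with an interval of 0.61 to 4.21. Of the 20 measured methylesterases on the list 0 were members, beside 3.61% of all measured loci. Among 63 loci annotated as pectinesterases or their inhibitors 3.17% were members, near that share. AT2G36710 (1.49) was more positive and AT1G10770 (-2.17) more negative, on 11 to 23 and 4 to 21 reads. PME46 (AT5G04960), the pectin methylesterase named in work on this mutant, had 2146 reads in luh-4 Al and 3507 in luh-4 control, against 903 in Col Al and 2824 in Col control. Its difference was 0.98 (0.85 to 1.11), just under the rule, and 1.02 under TMM scaling, which is past it.

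Other positive members came from several pathways. The glutathione transferase gene GSTU14 fell in both genotypes, with 218 reads in luh-4 Al and 839 in luh-4 control, against 56 in Col Al and 614 in Col control (1.53, 1.096 to 1.99). RAP2.11, a factor of the low-potassium response in roots, had 352 and 565 reads in luh-4 Al and luh-4 control, against 146 and 518 in Col Al and Col control (1.18). UCC3, a copper-binding uclacyanin gene, and CID5, named for a CTC-interacting domain, both fell in both genotypes and less far in luh-4 (1.87 and 1.75). With luh-4 control as the low library, the nitrilase gene NIT4, of cyanide detoxification, had 61 and 10 reads in luh-4 Al and luh-4 control against 93 and 41 in Col Al and Col control (1.33), and MIF3, a mini zinc finger gene, had 18 and 4 in luh-4 Al and luh-4 control against 22 and 18 in Col Al and Col control (1.83). PKS1, a phytochrome signalling gene, had 53 and 54 reads in luh-4 Al and luh-4 control against 26 and 96 in Col Al and Col control (1.83), and LTPG2, a lipid transfer protein gene, had 78 and 36 in luh-4 Al and luh-4 control against 48 and 54 in Col Al and Col control (1.31). APG12B, an autophagy gene, had 67 and 45 reads in luh-4 Al and luh-4 control against 30 and 76 in Col Al and Col control (1.94).

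**Figure D3:**
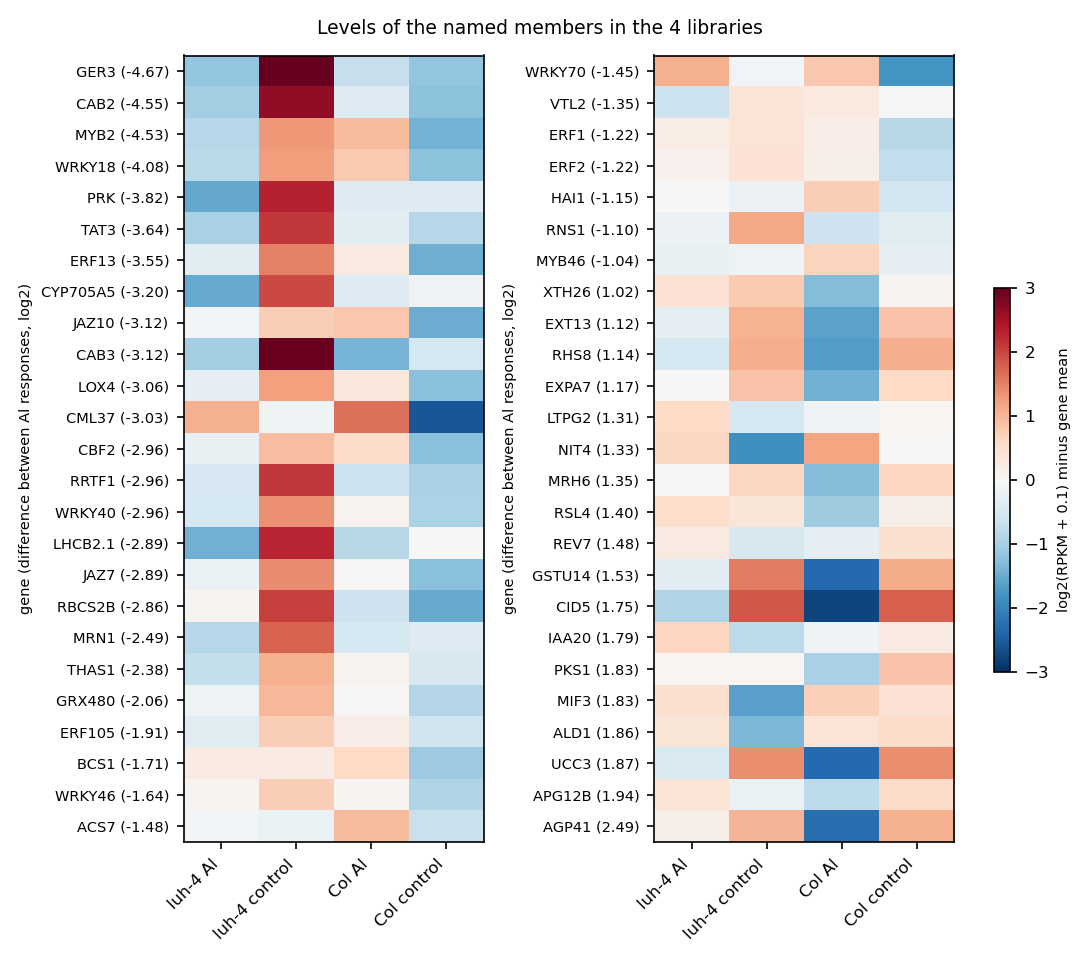
Levels of the 50 named members in luh-4 Al, luh-4 control, Col Al and Col control, coloured by log2(RPKM + 0.1) minus the gene's mean (red high, blue low; colours stop at 3 either way). The number beside each gene is its difference between Al responses, from -4.67 for GER3 to 2.49 for AGP41. Members outside these 50 reached -6.45 (AT3G05730, defensin-like) and 7.07 (AT5G41109, no known function).

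Many lists had few or no members, beside 2.26% more negative and 1.35% more positive over all measured loci. Of 23 measured genes of Al resistance, 2 were more negative in luh-4, BCS1 and WRKY46, a repressor of ALMT1 (28 and 46 reads in luh-4 Al and luh-4 control against 29 and 14 in Col Al and Col control, -1.64); BCS1 was placed on that list and is not known here as a resistance gene. ALMT1 (AT1G08430), the malate channel that carries most of the protection, had 9860 reads in luh-4 Al and 5725 in luh-4 control, against 9034 in Col Al and 5152 in Col control, and its difference was 0.02 (-0.05 to 0.09). For the citrate transporter gene MATE (AT1G51340) it was 0.49 (-0.20 to 1.21), for the ABC transporter gene ALS3 (AT2G37330) -0.21 (-0.48 to 0.06) and for the F-box gene RAE1 (AT5G01720) 0.08 (-0.07 to 0.24). The median of the list was 0.01. The counting intervals of ALMT1, ALS3 and RAE1 exclude a 2-fold difference in these libraries, and that of MATE does not. Reads covered at most 18.7% of the length of MATE.

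Single members stood on other lists: HAI1 of 11 abscisate genes (-1.15), MYB46 of 14 xylem and phloem genes (-1.04), VTL2 of 23 iron deficiency genes (-1.35), RNS1 of 16 phosphate genes (-1.10), IAA20 of 32 auxin genes (1.79), XTH26 of 26 xyloglucan enzymes, EXPA7 of 18 alpha-expansins and GSTU14 of 37 glutathione transferase and oxidative stress genes. Lists with 0 members were endodermis (16 measured), root cap and meristem (19), lignin (23), heat shock (18), clock (13), aquaporins (19), nitrate and ammonium (17), cytokinin and gibberellin (21), indole phytoalexins (14), flavonoids (7), coumarins (4), pectin methylesterase inhibitors (2), mucilage genes (6), LUH partners (8) and reference genes (12). These counts hold for the lists as drawn up. Among 25 loci annotated as aquaporins, NIP4;2 was more positive (2.36) on 4 to 12 reads, and the inhibitor gene AT1G10770 is given above. The indole phytoalexin list also covers glucosinolates, but the member MYB51 (-1.30), given above, is not on it. Median differences of the lists with 0 members ran from -0.38 for the indole phytoalexin list to 0.30 for the inhibitors. The reference genes had 0.03.

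**Figure D4:**
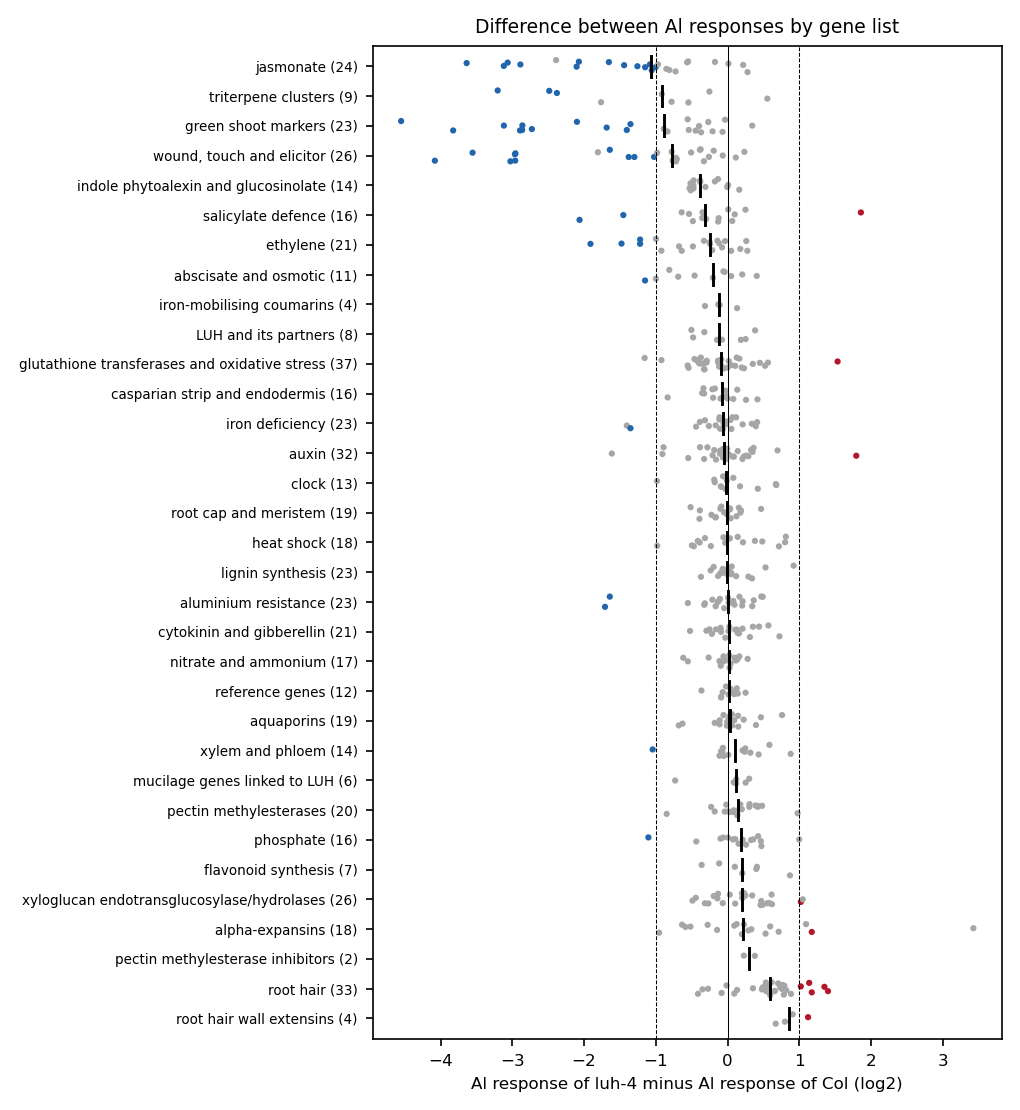
Difference between Al responses (luh-4 minus Col, log2) for every measured gene of 33 lists, 1 point per gene, with the number measured in parentheses and a black bar at each list's median. Members are blue (more negative) or red (more positive); jasmonate, triterpene, shoot marker and wound lists lie to the left at -1.07 to -0.77, and the root hair lists to the right at 0.60 and 0.85, while grey points outside the dashed lines had intervals that included 0.

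In the 250 bases before the gene start, the 394 more negative loci and 230 more positive loci were searched on both strands for 7 motifs. Only nuclear genes were searched, so the 3 mitochondrial and 2 plastid members were left out. The CAMTA element ACGCGT, bound by calmodulin-binding activators of early wound and cold genes, stood in 19 of 394 more negative loci (4.82%) and 2 of 230 more positive ones (0.870%), against 1.78% of 17221 measured loci and 1.67% of 27443 protein-coding genes. The more negative loci that held it included JAZ5, DIC2, TET9 and PROPEP1, none of which is on the wound list. By list, it stood in 2 of 13 jasmonate members, 0 of 10 wound members and 0 of 4 ethylene members. Other forms of the element were not searched, such as the CCGCGT in the window of the wound list member CBF2. The G-box CACGTG, bound by MYC2, stood in 9.90% and 6.09%, against 7.11% of measured loci, and the W-box TTGAC, bound by WRKY factors, in 47.5% and 39.6%, against 45.6%. Shares for the evening element AAAATATCT were 4.31% and 0.435%, against 2.404%, and for the heat element GAANNTTC 10.7% and 7.83%, against 9.48%. The GCC-box GCCGCC (1.78% and 1.74%, against 1.95%) and the telo-box AAACCCTA (2.28% and 1.74%, against 3.49%) were the remaining motifs. The shares describe letters in this window and were not tested.

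Loci near the rule are given only among those with a gene symbol and at least 5 RPKM in any library. Of these, the weakest negative members were AOS (-1.001), COG0212 (-1.02) and CLE13 (-1.02). Just outside the rule lay WRKY33 (-0.98), NPR3 (-0.996) and ERF6 (-0.997). On the positive side PDLP1 (1.004), AGP19 (1.005) and ROH1 (1.01) were just inside and RSH3 (AT1G16440, 0.99), NYE1 (0.99) and PAP17 (0.9996) just outside. Many members rested on few reads: 68 of the 394 and 35 of the 235 had at least 50 reads in their lowest library, 8 and 2 had 0 reads in a library, and 108 members were covered over less than 50% of their listed length in every library. Of the 394 more negative loci, 203 (51.5%, against 26.9% of all measured loci) had their lowest RPKM in Col control, beside the 243 with their highest in luh-4 control. With luh-4 Al set over Col control, luh-4 control is not used and Col control cancels. The difference becomes the log2 ratio of luh-4 Al over Col Al, so the separate parts of the control libraries cannot be told apart. On that scale, 67 of the 394 and 92 of the 235 members were kept, the jasmonate, wound and shoot marker medians were -0.12, -0.27 and 0.11, and the root hair median was 1.02.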

How the data were processed

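Poly(A) RNA from roots gave 4 libraries for short-read sequencing, per the labels' protocols. Reads were placed on TAIR10, per the submitters' processing notes. Aligner and counter: not given in the sources used here. The authors deposited, per transcript, a read count, an RPKM value (reads per kilobase of coding length, scaled to the library total) and the percent of that length covered. Per the file headers, read counts sum to 13450338 (luh-4 Al), 13735435 (luh-4 control), 13819365 (Col Al) and 13697345 (Col control); RPKM recomputed from them to a relative error of 5.1e-15. Lengths were multiples of 3 for 99.99% of transcripts, so they are coding lengths. Strand was not stated.

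Reads and RPKM were summed over transcripts per locus, unlisted loci taken as 0. Intervals for a response are exact conditional binomial, and those for a difference are normal approximations on log reads with 0.5 added; both cover counting error only, since PCR reads are not independent molecules, and the pseudocount understates changes of low loci. A count of 0 allows 3 reads. Coverage percent was used as a filter in 1 alternative. The rule was tried on simulated counts with counting error alone, which does not cover spread between libraries.

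Named were the 12 members furthest in each direction with a gene symbol and at least 5 RPKM somewhere, members past the rule in opposite directions with a symbol, up to 4 members per list, and LUH, ALMT1, MATE, ALS3, RAE1 and PME46; other genes were named after their values were seen. Members and the 33 lists were chosen with earlier results of these data known, and families by annotation words after values were seen. Of 758 list symbols 718 were matched, and of 21531 loci 21258 were in the TAIR10.1 gene table, which also gave gene starts. Alternatives were other pseudocounts, minima, thresholds, no interval, other totals, centring, TMM scaling, 1 transcript per locus and coverage, and, chosen after seeing the data, luh-4 Al set over Col control. Python 3.11.15, numpy 2.4.6, pandas 2.3.3, scipy 1.17.1, matplotlib 3.10.9, R 4.3.3 and edgeR 4.0.16 (TMM only) were used.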

Additional observations from a re-analysis of the deposited data

Results flagged for a closer look

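At 12 loci of the 17435 measured the Al responses passed the size rule in opposite directions in luh-4 and Col. The difference between these responses was not tested against replicates, since each group had 1 library. Over all measured loci 2.01% rose and 3.11% fell in luh-4, and 2.59% rose and 2.89% fell in Col. Whether 12 is more than these rates give by themselves was not tested. Of the 12 loci, 10 fell in luh-4 and rose in Col, and 7 of the 10 have a symbol. The differences were -4.53 for MYB2, -4.08 for WRKY18, -3.55 for ERF13, -3.06 for LOX4, -2.96 for CBF2, -2.96 for WRKY40 and -2.89 for JAZ7. All 7 were highest in luh-4 control. The remaining 3 encode proteins without an annotated function: AT3G60700 (-3.09), with 7 and 20 reads in luh-4 Al and luh-4 control against 12 and 3 in Col Al and Col control, AT4G28930 (-2.97), with 8 and 23 in luh-4 Al and luh-4 control against 28 and 9 in Col Al and Col control, and AT1G24600 (-2.53), with 12 and 27 in luh-4 Al and luh-4 control against 22 and 8 in Col Al and Col control. AT1G55152 (2.06), with 39 and 19 reads in luh-4 Al and luh-4 control against 14 and 28 in Col Al and Col control, and AT1G78922 (2.80), with 19 and 8 in luh-4 Al and luh-4 control against 6 and 20 in Col Al and Col control, rose in luh-4 and fell in Col; neither has an annotated function.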

How the results depend on the processing

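The counts of more positive and more negative members (235 and 394) were 128 and 236 with a pseudocount of 1 RPKM, 105 and 177 with an RPKM minimum of 5, 492 and 688 without the counting interval and 44 and 108 at a difference of at least 2. Coverage over at least 50% in every library that lists the locus kept 40 of the 50 named members and left counts of 158 and 258. They stayed within 1.5 times of 235 and 394 with a pseudocount of 0.01 (246 and 409), no minimum (276 and 455), TMM scaling (272 and 349), centring (269 and 353), totals without photosynthesis genes (235 and 395) and the top transcript per locus (231 and 392). With luh-4 Al set over Col control, an alternative chosen after seeing the data, they were 216 and 169, so the more positive share of calls was 56.1% in place of 37.4%. It turned the sign for MIF3 (-0.25), NIT4 (-0.56), CAB3 (0.36), RRTF1 (0.13), RBCS2B (0.71), ERF1 (0.038), ALD1 (-0.039), WRKY70 (0.26), RNS1 (0.43) and LUH (-4.35, from no reads in luh-4), and 16 of 50 named members kept their call. With a pseudocount of 1 RPKM, 42 of 50 kept it; the 8 lost were CID5 (0.91), NIT4 (0.70), ERF1 (-0.94), ALD1 (0.75), HAI1 (-0.80), RHS8 (0.82), MYB46 (-0.92) and XTH26 (0.94). No paired analysis was possible because each group had 1 library, and leaving out a library leaves no difference between responses. Depth limits low loci: the lowest library of a member had a median of 17.5 reads on the negative and 17 on the positive side.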

Other observations

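Transcripts of the mitochondrial genome were more positive in luh-4 at 3 of 58 measured loci and more negative at 0, against 1.35% and 2.26% of all measured loci, with a median difference of 0.34 over all 58. ATMG00030 had 9439 reads in luh-4 Al and 4537 in luh-4 control, against 9464 in Col Al and 13252 in Col control, so the Al libraries were close and the controls far apart (difference 1.59, 95% counting interval 1.52 to 1.65). Libraries were made from poly(A) RNA, in which organelle transcripts are poorly held. Among nuclear genes of translation, 2 of 179 cytosolic ribosomal protein genes were members, in opposite directions: AT2G25210, a ribosomal protein L39 gene (1.33), and AT1G01100 (-1.54).

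Among genes of uncharacterized proteins on the positive side, AT5G14330 was abundant, with 8185 reads in luh-4 Al and 7106 in luh-4 control, against 6114 in Col Al and 10999 in Col control (1.09), and AT3G50640 had 269 and 140 in luh-4 Al and luh-4 control against 310 and 508 in Col Al and Col control (1.69). Of 8 measured loci annotated as wound-responsive family proteins, AT4G10265 (2.16) and AT4G10270 (1.43) were more positive; AT4G10270 had 174 and 130 reads in luh-4 Al and luh-4 control, against 160 and 314 in Col Al and Col control. AT2G14900, a gibberellin-regulated family gene, had 1163 and 819 in luh-4 Al and luh-4 control against 814 and 1417 in Col Al and Col control (1.35). Of 1278 measured loci without a described function, 38 were more positive and 39 more negative, against 1.35% and 2.26% of all measured loci.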
